A study of Mus musculus with 24 samples.

Results

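The 9 genes of the JAK/STAT pathway and of the receptor for leukemia inhibitory factor (LIF) described here were taken by symbol from the 55471 annotated mouse genes of the series. They are the kinases *Jak1*, *Jak2* and *Tyk2*, the receptor chains *Il6st* and *Lifr*, the transcription factors *Stat3* and *Stat5b*, and the inhibitors *Socs2* and *Socs3*. *Jak2* was picked because of its IP/input at the late 2-cell stage, so that value and every other *Jak2* value that compares those libraries is given as a description without a test. The *Jak2* tests at and between the other stages come from fits that hold all stages. Their scaling and their estimate of the spread thus rest in part on those libraries too. The other 8 genes were listed by name. All 9 passed the filter on low counts in the SLIM-seq libraries, and 8 passed it in the *Ythdc1* knockdown libraries, where *Stat5b* did not.

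LIF binds a receptor made of LIFR and gp130, the product of *Il6st*, and the JAK kinases bound to the receptor tails then phosphorylate STAT proteins, which move to the nucleus and switch on target genes. SOCS proteins are induced by STATs and shut the signal down at the receptor. The pathway is best known in early mouse development for keeping embryonic stem cells in the pluripotent state through STAT3. N6-methyladenosine (m6A) is a methyl mark written on mRNA at a short sequence motif, often near stop codons, and it is read by proteins such as YTHDC1.

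Both experiments of the series bear on these genes. In SLIM-seq, a low-input form of m6A immunoprecipitation, RNA of B6D2F1 (C57BL/6 J x DBA/2N) oocytes at metaphase II (MII) and of embryos late in the 1-cell (L1C) or the 2-cell stage (L2C) was captured with an antibody against m6A (IP) or sequenced without capture (input), with 3 libraries of each kind per stage and 18 in all. Oocytes came from superovulated adult females and were stripped of cumulus cells, and embryos came from matings with B6D2F1 males and were cultured in KSOM medium. In the knockdown, zygotes of the same strain received Cas13d mRNA with CRISPR RNAs against *Ythdc1* (KD, 3 libraries) or Cas13d mRNA alone (NC, 3 libraries) and were collected at L2C, so that both groups carried Cas13d and only KD carried CRISPR RNAs. Every library pools oocytes or embryos, so a lower level in fewer of them and a lower level in each cannot be told apart, and the labels do not say whether the libraries of a group came from separate collections, so that the p-values measure the spread between these libraries.

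Total counts ran from 11107421 to 39739950 per SLIM-seq library and from 8696476 to 14500548 in the 5 knockdown libraries that cover the whole annotation. Levels are CPM, counts scaled to a common library total after TMM, so each value is a share of its library and not an amount per embryo. Scaling moved IP/input as a whole. The median log2 IP/input over the 21950 genes tested was 0.00, 0.07 and 0.09 in stage order with TMM, and 0.20, 0.37 and 0.34 with library size alone. Calls then split into 5744 higher and 3565 lower genes at MII in place of 3877 and 4599, into 6372 and 2613 at L1C in place of 3463 and 3988, and into 7315 and 3504 at L2C in place of 4830 and 4834. The 10 oocyte markers summed to a median of 11805 CPM in the MII inputs, 6946 CPM a stage later and 869 CPM at L2C. From MII to L1C *Gdf9* went from a mean of 5097 to 597 CPM. *Bmp15* (2807 to 3219 CPM), *Nlrp5* (1158 to 1847 CPM), *Zp2* and *Ooep* rose in that step. *Zp3* rose from L1C to L2C, and the others fell at each step. The 10 markers of the 2-cell embryo went the other way in sum, with 36.4, 265 and 599.8 CPM. Of these, *Duxf3* had means of 0.442, 112 and 6.03 CPM in stage order. *Tcstv1* fell at each step, to 17.3 CPM at L2C, *Tcstv3* fell from MII to L1C, and the others rose at each step. Markers of cumulus and granulosa cells, 13 in number, summed to between 19.99 and 39.85 CPM in MII and L1C inputs and to between 248 and 266 CPM in L2C inputs, where *Amhr2* alone had 246 CPM on average while *Foxl2* and *Ptx3* were at 0. The 7 leukocyte markers summed to between 12.3 and 23.2 CPM in the inputs, with *Ptprc* at or below 0.25 CPM in each stage's mean. *Laptm5* had means of 11.5, 13.1 and 2.82 CPM in stage order. *Cd52* rose, with 1.61, 3.90 and 9.29 CPM, and *Coro1a* and *Cd74* were highest at L2C, with 6.46 and 3.49 CPM.

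The sequences of these mRNAs were read for GGACT, a common form of the m6A motif, in the longest coding transcript of each gene. Shown first are 25-base windows with GGACT in capitals, 1 for the gene with the highest IP/input and 3 for genes with low IP/input, taken at the match nearest to the stop codon and written 5′ to 3′ on the transcript strand.
*Jak2*: ataattgcatGGACTatgagccaga
*Tyk2*: cacatatgtgGGACTctgccagttt
*Il6st*: ccgcagtgaaGGACTggctcctgaa
*Socs3*: acggccacctGGACTcctatgagaa
The *Jak2* window lies at chr19:29298658-29298682 on the plus strand of GRCm38, in coding sequence 1035 bases before the end of the stop codon. The *Tyk2* window is at chr9:21104240-21104264 on the minus strand, 795 bases after that point in the 3′ UTR. In *Il6st* the match starts 2 bases after the stop codon, at chr13:112504437-112504461 on the plus strand. The *Socs3* window, at chr11:117967614-117967638 on the minus strand, is in coding sequence 75 bases before the end of the stop codon. A GGACT within 200 bases of the stop codon was thus found for *Il6st* and *Socs3* and also for *Stat5b* and *Socs2*, but for none of *Jak1*, *Jak2*, *Tyk2*, *Lifr* and *Stat3*. Among the 21699 coding genes 36.5% have one there. *Jak2* has 4 GGACT in 5030 bases, or 0.795 per kilobase, below the median of 1.01 over all coding genes. The 9 genes ranged from 0.497 per kilobase in *Stat3* to 1.43 in *Jak1*. Over 15985 coding genes in 1 set of libraries, Spearman's rho between log2 IP/input and GGACT per kilobase was -0.07, -0.08 and -0.13 at the 3 stages. These are correlations across genes that share their libraries, and a match is not a mapped m6A site.

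*Jak2* encodes the kinase that serves the receptors of erythropoietin, growth hormone and many cytokines, and lies at chr19:29251828-29313080 on the plus strand. Its input level was 40.5, 37.5 and 31.5 CPM at MII, 68.6, 51.2 and 49.4 CPM at L1C, and 32.9, 31.9 and 33.1 CPM at L2C. The L1C inputs were all above those of the other stages, and 1 of them stood at 68.6 CPM. In the IP libraries it had 67.5, 67.6 and 63.0 CPM at MII, 69.4, 73.6 and 64.3 CPM at L1C, and 144, 129.9 and 150.0 CPM at L2C. At MII each IP library was above each input, and at L1C 1 input lay within the range of the IP libraries. The log2 IP/input was 0.85 ± 0.13 (SE, n = 3 against 3) at MII, a 1.81-fold difference that passed the test (edgeR, adjusted p = 2.61e-05). At L1C it was 0.29 ± 0.13 and missed the threshold (edgeR, adjusted p = 0.083, unadjusted p = 0.032), and it was called without the L1C input of 68.6 CPM (0.45, adjusted p = 0.0068), with DESeq2 (0.33, adjusted p = 0.025) and with library size alone (0.60, adjusted p = 0.00063). At L2C, the value for which the gene was chosen, log2 IP/input was 2.11 ± 0.13, a ratio of 4.33, above 98.4% of 15985 coding genes. The change from MII to L1C was -0.56 ± 0.18 on the log2 scale (edgeR, adjusted p = 0.067), and it was called with DESeq2 (adjusted p = 0.014) and without L1C input replicate 3 (-0.65, adjusted p = 0.042). From L1C to L2C the fitted IP/input differed by 1.82 ± 0.18 and from MII to L2C by 1.26 ± 0.18, without a test.

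The study tagged an mRNA as m6A by IP above input, unadjusted p under 0.05 and a read count above 1 in the inputs. Applied here to the edgeR fit, with more than 1 count in each input and without its further conditions (DESeq2, genes without a p, agreement among replicates), this rule tagged *Jak2* at MII and at L1C, where 19.5% and 18.9% of tested genes met it. None of the other 8 genes met it at any stage. At L2C, where the rule was not applied to *Jak2* because of its choice, 24.3% of tested genes met it. By adjusted p, *Jak2* was the single one of the 9 genes with higher IP than input at MII, against 17.7% of all tested genes.

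**Figure D1:**
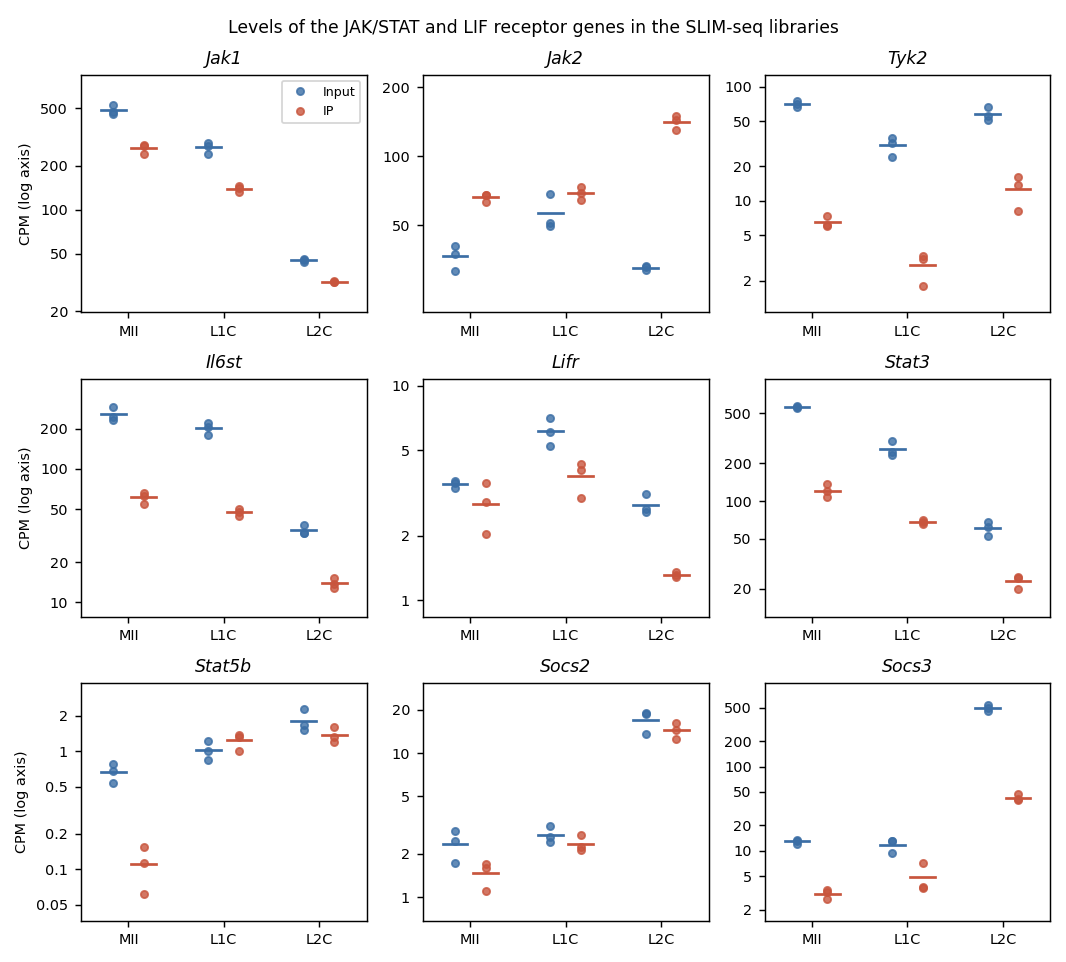
CPM (log axis, 1 panel per gene) of the 9 genes in the 3 input and 3 IP libraries of each stage; points are libraries and bars are means. *Jak2* is the gene whose IP points lie above its inputs at MII and L2C, and *Socs3* input rises from between 9.40 and 13.0 CPM at L1C to between 462 and 538 CPM at L2C.

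The other genes were mostly depleted from the IP. Of the 9 genes, 7 had lower IP than input at MII, where 21.0% of all tested genes did, and 6 of 9 at L1C, where 18.2% did. At L2C 6 of the 8 tested genes were lower and none higher, against 22.0% of all genes in each direction. Calls in either direction made up 38.6%, 33.9% and 44.0% of all genes at the 3 stages, and at L1C none of the 9 was higher, against 15.8% of all genes. The median log2 IP/input over the 9 genes was -2.06 at MII and -0.95 at L1C, and it was -1.20 over the 8 genes other than *Jak2* at L2C. *Jak1*, *Tyk2*, *Il6st*, *Stat3* and *Socs3* were lower in the IP at each of the 3 stages.

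*Jak1*, which encodes the kinase that gp130 relies on most, lies at chr4:101152367-101265282 on the minus strand and was among the best represented of the 9 mRNAs in oocytes. Its inputs held 527, 455 and 471 CPM at MII, 286, 243 and 275 CPM at L1C, and 43.7, 45.2 and 46.1 CPM at L2C. The 3 stages did not overlap, and each step down passed the test: by -0.77 ± 0.11 on the log2 scale from MII to L1C (edgeR, adjusted p = 5.59e-05) and by -2.34 ± 0.12 from L1C to L2C (edgeR, adjusted p = 1.92e-10). In the IP it had 276, 281 and 241 CPM at MII, 145, 140.2 and 133 CPM at L1C, and 32.5, 31.8 and 32.0 CPM at L2C. The log2 IP/input was -0.87 ± 0.10, -0.95 ± 0.10 and -0.49 ± 0.10 at the 3 stages (edgeR, adjusted p = 8.77e-07, 5.56e-07 and 0.00067). Input and IP thus fell together, with the IP below the input throughout. The difference in IP/input between L1C and L2C, 0.46 ± 0.14, was called by a small margin (edgeR, adjusted p = 0.046) and was lost when any of 16 of the 18 libraries was left out.

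*Tyk2*, the kinase of the interferon and interleukin-12 receptors, lies at chr9:21104068-21131243 on the minus strand. Most of its span, 24326 bases, is shared with the antisense gene 1700084C06Rik, whose mean input count went from 29.6 at MII to 269 at L2C; how strand was treated in counting is not given in the sources used here, and reads of this pair may be mixed. *Tyk2* inputs held 70.4, 75.7 and 66.2 CPM at MII, 24.4, 32.4 and 35.9 CPM at L1C, and 50.7, 66.3 and 55.0 CPM at L2C. It fell by 1.11 on the log2 scale from MII to L1C (SE 0.16, edgeR, adjusted p = 5.91e-05) and rose by 1.13 from L1C to L2C (SE 0.16, edgeR, adjusted p = 1.52e-05). In the IP it had 6.11, 7.32 and 6.04 CPM at MII, 1.78, 3.30 and 3.12 CPM at L1C, and 16.2, 8.14 and 13.9 CPM at L2C. Each IP library was below each input of its stage. The log2 IP/input was -3.44 ± 0.24, -3.48 ± 0.25 and -2.15 ± 0.22 in stage order (edgeR, adjusted p = 1.74e-09, 5.58e-09 and 4.20e-07). That is an IP level of 0.0917, 0.0884 and 0.222 times the input. The depletion at L2C was smaller than at L1C by 1.33 ± 0.32 (edgeR, adjusted p = 0.013) and than at MII by 1.29 ± 0.31 (edgeR, adjusted p = 0.0059).

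At MII and L1C the IP/input of the 3 kinases came in the order *Jak2*, *Jak1*, *Tyk2*, without overlap of the IP libraries between genes. The order was the same at L2C, where the first place of *Jak2* was fixed by its choice. The values of each IP library against the mean of its inputs were 0.19 or more for *Jak2*, ran from -1.01 to -0.47 for *Jak1* and were -1.83 or less for *Tyk2* on the log2 scale.

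**Figure D2:**
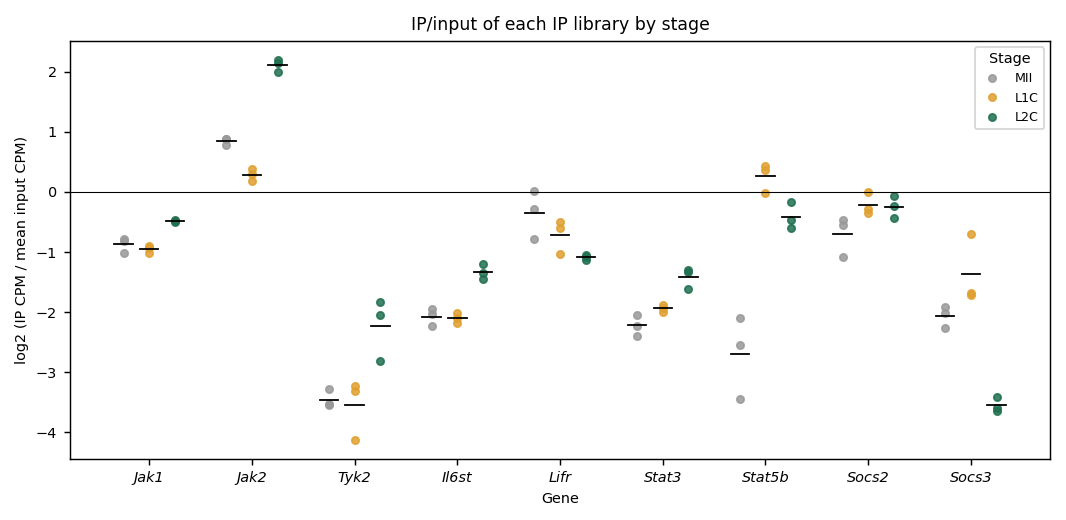
log2 of the CPM of each IP library over the mean CPM of the 3 inputs of its stage, for each gene (x axis) and stage (colour); black bars are means of 3 libraries. The *Jak2* points lie above 0 at every stage and *Tyk2*, *Il6st*, *Stat3* and *Socs3* points lie below 0 at every stage.

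Of the receptor chains, *Il6st* (gp130, the shared chain of the interleukin-6 family; chr13:112464070-112510086, plus strand) was abundant in oocytes. Inputs held 290.0, 234 and 245 CPM at MII, 205, 179 and 222 CPM at L1C, and 33.3, 33.2 and 37.9 CPM at L2C. MII and L1C inputs did not differ past the threshold (-0.26 ± 0.13, edgeR, adjusted p = 0.096, and 0.038 with DESeq2), and the fall from L1C to L2C was -2.30 ± 0.13 (edgeR, adjusted p = 7.42e-10). IP libraries held 62.9, 66.3 and 54.4 CPM at MII, 50.3, 47.2 and 44.5 CPM at L1C, and 13.6, 12.8 and 15.2 CPM at L2C. Log2 IP/input was -2.07 ± 0.12, -2.09 ± 0.12 and -1.32 ± 0.12 at the 3 stages (edgeR, adjusted p = 2.20e-10, 5.92e-10 and 1.33e-07). *Il6st* was depleted less at L2C than at L1C by 0.77 ± 0.17 (edgeR, adjusted p = 0.0085) and than at MII by 0.74 ± 0.17 (edgeR, adjusted p = 0.0041).

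*Lifr*, the chain that binds LIF (chr15:7090614-7197489, plus strand), was low at every stage. Inputs held 3.53, 3.60 and 3.35 CPM at MII, 7.07, 5.22 and 6.12 CPM at L1C, and 2.65, 2.57 and 3.14 CPM at L2C. Its L1C inputs were above all others: it rose by 0.90 ± 0.22 from MII to L1C (edgeR, adjusted p = 0.0028) and fell by 0.89 ± 0.21 from L1C to L2C (edgeR, adjusted p = 0.0012). The IP held 2.86, 3.53 and 2.03 CPM at MII, 4.05, 4.32 and 3.01 CPM at L1C, and 1.35, 1.28 and 1.32 CPM at L2C. At MII the groups overlapped and log2 IP/input was -0.31 ± 0.23 (edgeR, adjusted p = 0.32). The IP was lower at L1C by -0.70 ± 0.22 (edgeR, adjusted p = 0.017) and at L2C by -1.08 ± 0.23 (edgeR, adjusted p = 0.00099). The L1C call was lost without input replicate 1 (adjusted p = 0.071), without IP replicate 3 (adjusted p = 0.088), and with library size alone (adjusted p = 0.14) or without the filter (adjusted p = 0.083). Differences in IP/input between stages missed the threshold for *Lifr*.

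*Stat3* (chr11:100885098-100939540, minus strand), the factor that LIF acts through, fell at both steps, as *Jak1* did. Inputs held 565, 549 and 572 CPM at MII, 234, 246 and 299 CPM at L1C, and 52.9, 68.2 and 61.5 CPM at L2C. It fell by 1.03 on the log2 scale from MII to L1C and by 1.85 from L1C to L2C (SE 0.13 and 0.14, edgeR, adjusted p = 2.03e-05 and 1.19e-08). IP libraries held 120.4, 136 and 107 CPM at MII, 70.4, 65.2 and 68.5 CPM at L1C, and 24.2, 19.8 and 24.7 CPM at L2C. No IP library reached the lowest input of its stage. Log2 IP/input was -2.21 ± 0.13, -1.93 ± 0.13 and -1.40 ± 0.13 at MII, L1C and L2C (edgeR, adjusted p = 1.97e-10, 2.83e-09 and 1.13e-07). Between MII and L2C it differed by 0.81 ± 0.18 (edgeR, adjusted p = 0.0030), and neither step alone passed the threshold. The gene shares 72 bases at its end with *Stat5a* on the other strand.

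*Stat5b* (chr11:100780731-100850724, minus strand), a factor downstream of JAK2 in growth hormone signalling, was the least abundant of the 9 mRNAs at MII and L1C. It is nearly identical to its neighbour *Stat5a*, and how reads of such a pair were shared is uncertain. Inputs held 0.685, 0.779 and 0.536 CPM at MII, 1.21, 1.00 and 0.848 CPM at L1C, and 1.67, 2.26 and 1.52 CPM at L2C. It rose by 1.05 ± 0.33 from L1C to L2C (edgeR, adjusted p = 0.0087) and by 1.75 ± 0.35 from MII to L2C (edgeR, adjusted p = 0.00031). In the MII IP it had 2, 3 and 1 counts per library against 13, 13 and 8 in the inputs. Summed, these were 6 against 34 counts, a ratio of 0.198 after division by library totals, with a counting interval of 0.0681 to 0.478 at 95% (Clopper-Pearson; counting error only). The test called the MII IP lower (edgeR, adjusted p = 0.00021). IP and input libraries overlapped at L1C (1.38, 1.31 and 1.01 CPM in the IP) and at L2C (1.32, 1.62 and 1.19 CPM in the IP), with log2 IP/input of 0.26 ± 0.31 and -0.41 ± 0.29 (edgeR, adjusted p = 0.56 and 0.27). The ratio of summed counts after division by library totals was 1.43 at L1C, with a counting interval of 1.03 to 2.01. At L2C it was 0.893 with an interval of 0.704 to 1.13. The intervals cover counting error only and are not on the TMM scale of the printed CPM. On that scale the ratio of mean CPM was 1.21 at L1C and 0.758 at L2C, so the place of the L1C interval above 1 depends on the scaling. IP/input at MII was lower than at L1C (edgeR, adjusted p = 0.0034) and than at L2C (edgeR, adjusted p = 0.0098), where the fitted sizes depend on the prior count because of those few counts. The latter call was lost without the filter (adjusted p = 0.077).

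The 2 inhibitors were low in CPM in oocytes and rose at L2C. Divided by the length of the gene span (TPM), *Socs3* had 22.9 at MII, below *Jak1* with 28.1 and above *Tyk2* with 17.2. *Socs3*, the inhibitor that STAT3 induces and that binds gp130 and JAKs, lies at chr11:117966079-117970047 on the minus strand. Inputs held 12.2, 13.1 and 13.6 CPM at MII, 9.40, 13.0 and 12.9 CPM at L1C, and 462, 538 and 500.2 CPM at L2C. MII and L1C overlapped, and the L2C inputs were above both by more than an order of magnitude. The rise from L1C to L2C was 5.65 ± 0.17 on the log2 scale (edgeR, adjusted p = 1.81e-12), the largest of the 9 genes. IP libraries held 3.43, 2.70 and 3.20 CPM at MII, 3.69, 3.58 and 7.25 CPM at L1C, and 47.2, 40.1 and 41.4 CPM at L2C. One L1C IP library stood at 7.25 CPM, above the other IP libraries of that stage and below its inputs. Log2 IP/input was -2.06 ± 0.23, -1.25 ± 0.21 and -3.54 ± 0.20 in stage order (edgeR, adjusted p = 5.75e-07, 9.75e-05 and 5.88e-10). So the depletion of *Socs3* deepened at L2C, by -2.29 ± 0.28 against L1C (edgeR, adjusted p = 7.40e-05) and by -1.48 ± 0.29 against MII (edgeR, adjusted p = 0.0013), while that of *Tyk2* and *Il6st* became smaller.

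The start of *Socs3* was also the single one among 10 promoter windows of 8 of the genes that held TTCNNNGAA, a motif bound by STAT dimers. RefSeq promoters of GRCm38.p6 were searched from 250 bases before to 50 bases after each start on both strands, and 8.30% of all 32851 windows held it. The match starts 154 bases before the transcription start. The window is shown because *Socs3* is the classical STAT target of the list; it is chr11:117969317-117969616 on the minus strand, with the match in capitals.
*Socs3* promoter: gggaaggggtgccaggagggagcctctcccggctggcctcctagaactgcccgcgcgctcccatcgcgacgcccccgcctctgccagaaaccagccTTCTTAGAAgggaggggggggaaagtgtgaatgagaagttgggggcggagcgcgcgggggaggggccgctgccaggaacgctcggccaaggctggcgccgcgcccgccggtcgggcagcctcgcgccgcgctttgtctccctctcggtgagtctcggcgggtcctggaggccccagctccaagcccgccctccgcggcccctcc
Windows of *Jak1*, *Jak2*, *Tyk2*, *Il6st*, *Lifr*, *Stat3* and *Stat5b* did not hold these letters. *Socs2* had no window in the table.

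*Socs2* (chr10:95385362-95417180, minus strand), a brake on growth hormone signalling, had inputs of 1.74, 2.46 and 2.88 CPM at MII, 2.42, 3.11 and 2.60 CPM at L1C, and 18.5, 13.7 and 19.0 CPM at L2C. It rose by 2.89 ± 0.23 from L1C to L2C (edgeR, adjusted p = 2.35e-08). IP libraries held 1.71, 1.61 and 1.11 CPM at MII, 2.22, 2.13 and 2.71 CPM at L1C, and 16.3, 12.6 and 14.5 CPM at L2C. The 2 inhibitors that rose together thus differed in the IP: *Socs2* IP and input overlapped at L1C and L2C, where log2 IP/input was -0.20 ± 0.22 and -0.24 ± 0.19 (edgeR, adjusted p = 0.54 and 0.34) and turned to 0.10 and 0.02 with library size alone. At MII it was -0.66 ± 0.25 (edgeR, adjusted p = 0.044), a call that was lost with DESeq2 (adjusted p = 0.071) and when any of 10 of the 18 libraries was left out, with a log2 IP/input of between -0.84 and -0.49.

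Between stages, the inputs of all 8 tested genes changed from L1C to L2C, but 44.1% of all genes rose and 38.8% fell in that step, 82.9% in all, so the count is near the background. *Socs2*, *Socs3*, *Tyk2* and *Stat5b* rose, and *Jak1*, *Stat3*, *Il6st* and *Lifr* fell. *Jak2* went from a mean of 56.4 ± 10.6 CPM (SD, n = 3) at L1C to 32.6 ± 0.66 at L2C, given without a test. From MII to L1C 2 of 9 rose, *Lifr* and *Jak2* (*Jak2* by 0.71 ± 0.15, edgeR, adjusted p = 0.0011), and 3 fell, *Jak1*, *Tyk2* and *Stat3*, where 31.9% of all genes rose and 24.3% fell, 56.2% in all. From MII to L2C 3 of the 8 tested genes rose and 3 fell, where 47.5% and 37.1% of all genes did, 84.6% in all. Changes of IP/input were called for 1 of 9 genes between MII and L1C (3.13% of all genes higher and 4.21% lower at L1C, 7.33% in all), for 4 of 8 between L1C and L2C (5.00% higher and 4.47% lower at L2C, 9.47% in all) and for 5 of 8 between MII and L2C (11.1% higher and 9.21% lower at L2C, 20.3% in all).

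Levels were also put on a scale per kilobase of exon to order the genes by abundance. The counts themselves were assigned over whole gene spans, introns included, so the order depends on the length used. TMM was here computed over the 9 inputs alone, as in the fit of inputs between stages, so these values are not the CPM above divided by length. At MII the order was *Jak1* (55.6 ± 3.67 CPM per kilobase, SD, n = 3), *Stat3* (49.0 ± 1.30), *Il6st* (19.2 ± 1.95), *Tyk2* (8.56 ± 0.560), *Jak2* (6.02 ± 0.681), *Socs3* (3.72 ± 0.260), *Lifr* (0.269 ± 0.0084), *Socs2* (0.206 ± 0.053) and *Stat5b* (0.0999 ± 0.018), and no neighbours in it overlapped. L1C began in the same way with *Jak1* (32.7 ± 2.69), *Stat3* (24.0 ± 3.44) and *Il6st* (16.0 ± 1.83). *Jak2* (9.86 ± 1.77) then stood above *Tyk2* (3.97 ± 0.791) and *Socs3* (3.59 ± 0.648), whose ranges overlapped, and *Lifr* (0.502 ± 0.073), *Socs2* (0.251 ± 0.033) and *Stat5b* (0.162 ± 0.027) came last. At L2C *Socs3* led with 180.1 ± 15.7, ahead of *Tyk2* (8.70 ± 1.33). *Jak2* (6.75 ± 0.055), *Stat3* (6.65 ± 0.910) and *Jak1* (6.48 ± 0.201) followed, the range of *Stat3* overlapping those of both kinases while the kinases did not overlap each other, then *Il6st* (3.26 ± 0.230) and *Socs2* (1.86 ± 0.302), and *Stat5b* (0.341 ± 0.078) and *Lifr* (0.269 ± 0.028) overlapped at the end. In these inputs *Jak1*, *Stat3* and *Il6st* thus led at MII and *Socs3* at L2C, and in the NC embryos at L2C the order was another one. The deposited TPM values divide by the length of the whole gene span, of which exons are 6.40% in *Jak1* and 72.8% in *Socs3*, and on that scale *Stat3* led at MII and L1C with 67.8 ± 1.45 and 27.2 ± 4.01 TPM, while *Socs3* led at L2C with 670.4 ± 39.9 TPM. By TPM *Jak1* had place 3 at MII and 4 at L1C, *Socs3* had place 4 and 3, and *Jak2* had place 6 at L2C.

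By pattern over the 18 SLIM-seq libraries, the coding genes most like *Jak2* were *Strn*, *Tmem65* and *Otulin*, with Pearson's r of log2 CPM of 0.93, 0.92 and 0.92 among 16162 genes compared. For 7 of the other genes the gene most alike was *Edrf1* for *Jak1* (r = 0.997), *Ints3* for *Tyk2* (r = 0.98), *Msh6* for *Il6st* (r = 0.99), *Plekha2* for *Lifr* (r = 0.97), *Ly75* for *Stat5b* (r = 0.95), *Dync1li1* for *Socs2* (r = 0.99) and *Chtf18* for *Socs3* (r = 0.99). The points of each r are libraries of 6 groups, so r reflects the differences between groups, and the highest r was lower for *Jak2* than for each of these 7 genes.

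The rest of the pathway was read from a list of 75 further ligands, receptors, kinases, STATs, inhibitors, adaptors and targets, of which 68 passed the filter. At MII 10 of these were higher in the IP and 22 lower (median log2 IP/input -0.28 against 0.00 for all genes), at L1C 8 and 19 (-0.19 against 0.07), and at L2C 12 and 24 (-0.36 against 0.09). Of all genes 17.7% were higher and 21.0% lower at MII, 15.8% and 18.2% at L1C, and 22.0% in each direction at L2C. Of the 14 tested inhibitors 9 were lower and 1 higher at MII, and 7 lower and 3 higher at L2C. *Pias4*, which adds SUMO to proteins and restrains STATs, had a log2 IP/input of -1.56 ± 0.16 at MII and -2.05 ± 0.17 at L2C (edgeR, adjusted p = 3.30e-07 and 2.47e-08), and *Ptpn1*, a phosphatase of JAK2 and TYK2, -1.12 ± 0.12 and -1.23 ± 0.11 (edgeR, adjusted p = 4.03e-07 and 1.11e-07). Of the 9 adaptors and nuclear partners 4 were higher and 1 lower at each stage. These groups are small and their counts were not tested against those of all genes. Among them *Grb2*, which links receptors to the RAS pathway, had 1.57 ± 0.19 at MII (edgeR, adjusted p = 2.25e-06). Of the 15 tested targets 9 were lower and 2 higher at L2C, *Mcl1*, an inhibitor of apoptosis, being higher by 1.51 ± 0.21 (edgeR, adjusted p = 1.25e-05) and its relative *Bcl2l1* lower by -1.79 ± 0.14 (edgeR, adjusted p = 1.94e-08).

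In the inputs 40 of the 68 genes rose and 20 fell from L1C to L2C, and their median change was 1.20 on the log2 scale against 0.17 for all genes. That is to be read against 44.1% of all genes that rose and 38.8% that fell. Of the 14 tested inhibitors 7 rose and 5 fell, and 2 were not called. *Pim1*, a kinase gene induced by STATs, rose from 4.86 ± 1.07 to 171 ± 12.5 CPM (SD, n = 3), a log2 change of 5.38 ± 0.20 (edgeR, adjusted p = 1.19e-11), and *Ptpn1* from 12.8 ± 1.95 to 244 ± 11.3 CPM (4.50 ± 0.15, edgeR, adjusted p = 3.96e-12). *Il6ra*, the receptor chain that binds interleukin-6, rose from 0.756 ± 0.353 to 56.3 ± 5.44 CPM (edgeR, adjusted p = 1.05e-10). *Pias1* fell from 747 ± 92.9 to 68.2 ± 2.85 CPM (-3.21 ± 0.13, edgeR, adjusted p = 2.08e-11), *Stat4* from 44.5 ± 8.54 to 3.41 ± 0.486 CPM (-3.46 ± 0.18, edgeR, adjusted p = 2.01e-10) and *Stat6* from 138 ± 11.3 to 9.30 ± 1.21 CPM (-3.66 ± 0.17, edgeR, adjusted p = 8.00e-11). *Stat6* had first risen from 33.8 ± 6.45 CPM at MII (2.12 ± 0.16, edgeR, adjusted p = 8.56e-08).

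**Figure D3:**
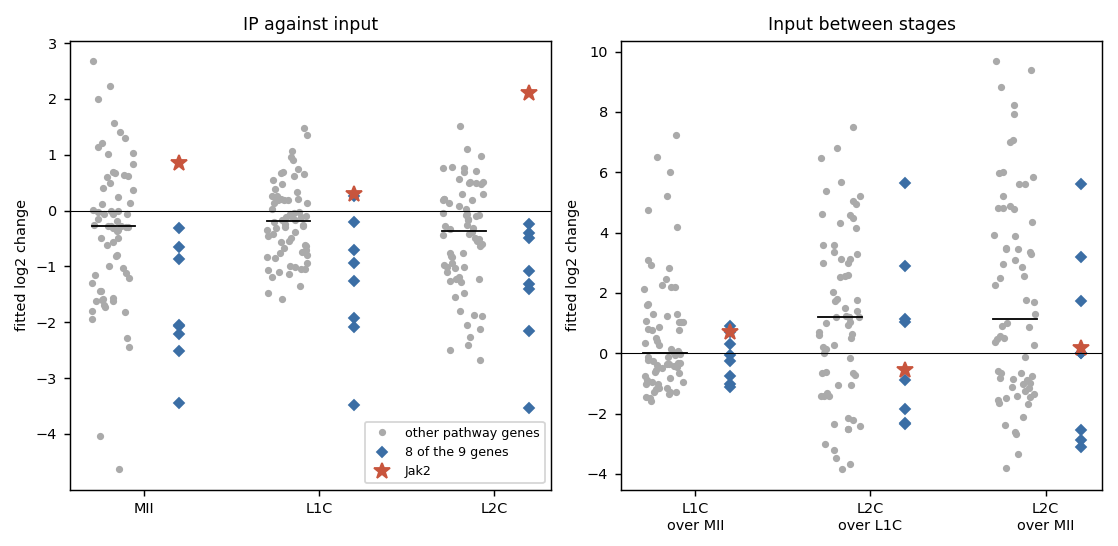
Fitted log2 change of 68 other pathway genes (grey, median as a bar), of 8 of the 9 genes (blue) and of *Jak2* (star), for IP against input at each stage on the left and for inputs between stages on the right. At L2C *Jak2*, which was chosen on that value, lies at 2.11, above the pathway genes, whose median is -0.36.

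For the knockdown, the targeted gene was checked first. *Ythdc1* had 202 and 208 CPM in KD libraries 1 and 2 and 416, 422 and 380.4 CPM in the NC libraries, a log2 change of -0.99 ± 0.08 (edgeR, adjusted p = 5.21e-08), and the groups did not overlap. The file of KD library 3 ends part-way along the annotation, and of the 9 genes it holds *Jak1* alone, so the other 8 genes rest on 2 KD and 3 NC libraries. Stage markers moved with the groups: the 10 markers of the 2-cell embryo summed to between 333 and 375 CPM in KD and between 1141 and 1186 CPM in NC, and the 10 oocyte markers to between 827 and 894 CPM in KD and between 1629 and 1770 CPM in NC, with none of either list at 0. All 10 markers of the 2-cell embryo had a lower mean in KD, and so had 8 of the 10 oocyte markers, of which *Oosp1* made up the largest part (369 CPM in KD and 934 CPM in NC), while *Ooep* (38.0 and 16.2 CPM) and *Zp3* (106 and 74.8 CPM) had a higher one. The 13 cumulus and granulosa markers summed to between 46.8 and 49.3 CPM in KD and between 35.5 and 38.0 CPM in NC. Of these, 8 had a higher mean in KD and 2 a lower one. *Amhr2* had 30.1 CPM in KD and 20.1 CPM in NC, and *Star* had 0.552 and 3.43 CPM. The 7 leukocyte markers summed to between 16.7 and 18.7 CPM in KD and between 27.8 and 41.7 CPM in NC. Of these, 4 had a lower mean in KD and 1 a higher one. *Cd74* had 2.67 CPM in KD and 18.3 CPM in NC, *Cd52* had 14.2 and 11.6 CPM, and *Ptprc* and *Tyrobp* were at 0. The part of these shifts in the values that follow was not tested. The change was wide, since 30.5% of the 17074 tested genes were higher and 36.4% lower in KD, 66.8% in all.

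Against that background 3 of the 8 tested genes were higher in KD and 2 lower, counts that are near the background. One of the 3, *Lifr*, passed the filter through its KD libraries alone, where it was high, and without it 2 were higher, *Socs3* and *Tyk2*. By the rule of the study (unadjusted p under 0.05 and a log2 change over 1 in size) 3 were called, *Socs3*, *Socs2* and, with the same limit, *Lifr*, where 38.9% of all genes were. The 2 inhibitors moved in opposite directions. *Socs3* had 52.9 and 56.8 CPM in KD and 11.4, 11.9 and 12.9 CPM in NC, higher by 2.19 ± 0.12 on the log2 scale or 4.57-fold (edgeR, adjusted p = 7.66e-10). *Socs2* had 6.66 and 7.71 CPM in KD and 19.5, 21.3 and 22.2 CPM in NC, lower by -1.55 ± 0.16 or 2.92-fold (edgeR, adjusted p = 7.10e-07). In neither gene did the groups overlap.

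*Jak2* was the most abundant of the 9 genes in these libraries, with 594 and 548 CPM in KD and 673, 641 and 609 CPM in NC. Its groups did not overlap either, but the change was small, at -0.17 ± 0.07, and missed the threshold (edgeR, adjusted p = 0.059, unadjusted p = 0.040). It was called with library size alone (-0.24, adjusted p = 0.0057), without the filter (-0.19, adjusted p = 0.029) and without NC replicate 3 (-0.21, adjusted p = 0.0046). *Jak1* had 32.5 and 33.3 CPM in KD and 44.6, 44.9 and 41.1 CPM in NC (-0.41 ± 0.11, edgeR, adjusted p = 0.0030). With all 6 libraries, on the CPM scale of the genes that KD library 3 holds, *Jak1* had 83.9, 86.5 and 86.9 CPM in KD and 116, 117 and 107 CPM in NC (-0.40 ± 0.09, edgeR, adjusted p = 0.00062), where 37.4% of the 7433 genes tested were lower and 70.9% changed in all. It was not called by the rule of the study, which 37.2% of those genes met. *Tyk2* was higher in KD, with 18.8 and 20.2 CPM against 12.8, 12.5 and 16.6 CPM (0.49 ± 0.16, edgeR, adjusted p = 0.011), and the call was lost without KD replicate 2 (adjusted p = 0.060) or NC replicate 2 (adjusted p = 0.062). One kinase was thus lower, one higher and one not called.

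*Stat3* overlapped between the groups, with 15.8 and 16.2 CPM in KD and 14.1, 14.2 and 16.4 CPM in NC (0.11 ± 0.15, edgeR, adjusted p = 0.52). *Il6st* had 21.3 and 21.7 CPM in KD and 27.8, 23.7 and 25.7 CPM in NC (-0.26 ± 0.13, edgeR, adjusted p = 0.077), and was called with library size alone (-0.33, adjusted p = 0.028). *Lifr* was near the limit of counting: 11 and 10 counts in KD against 1, 0 and 3 in NC, 21 against 4 in sum, a ratio of 9.09 with a counting interval of 3.07 to 36.4 (95%, counting error only). It passed the filter through the KD libraries alone, so its call is not read as support. The fitted log2 change depends on the prior count and ran from 2.52 without NC replicate 2 to 4.49 without NC replicate 3, and without KD replicate 1 the gene gave no fit. *Stat5b* had 5 and 4 counts in KD and 0, 0 and 1 in NC and did not pass the filter.

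**Figure D4:**
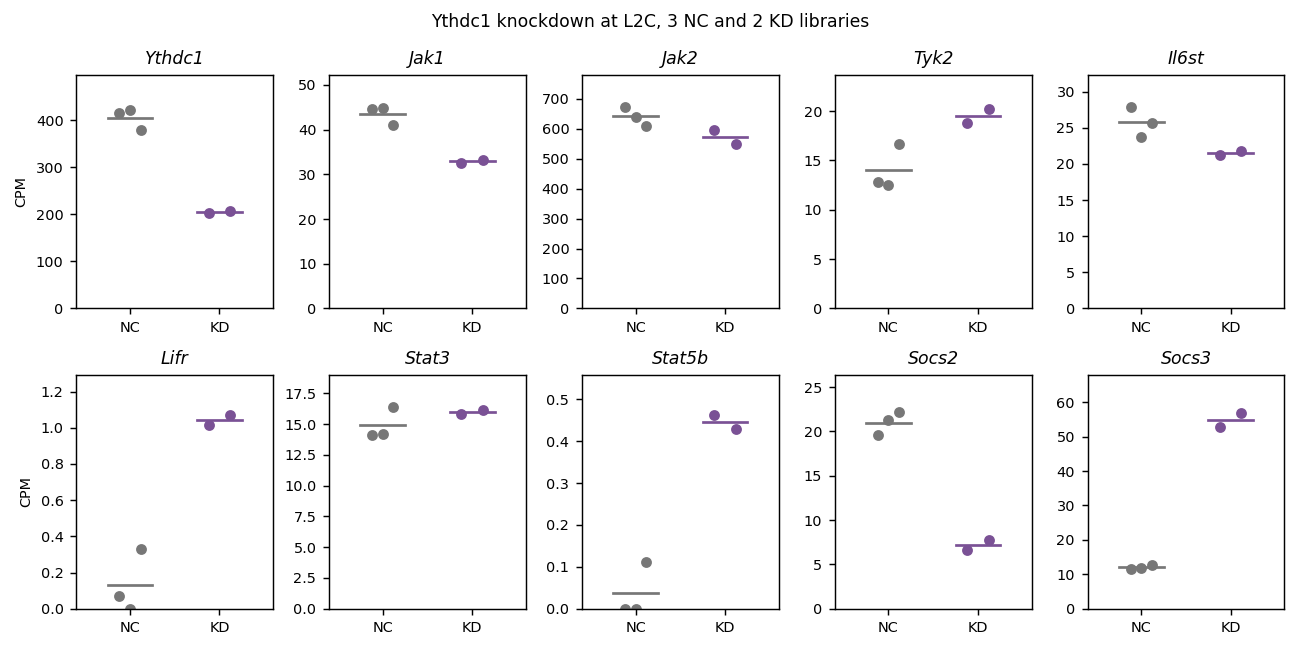
CPM of *Ythdc1* and the 9 genes in the 3 NC and 2 KD libraries of L2C embryos that cover the whole annotation; points are libraries, bars are means and each axis starts at 0. *Socs3* is higher and *Socs2* lower in both KD libraries than in every NC library.

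Of the 75 pathway genes 55 were tested in the knockdown, with 17 higher and 22 lower, near the 30.5% and 36.4% of all genes, and a median of -0.08 against -0.09 for all genes. Of the 12 receptors among them 3 were higher and 9 lower, and the 3 ligands were lower. With all 6 libraries 21 pathway genes were tested, with 6 higher and 12 lower, where 33.5% and 37.4% of all genes were. Their median was -0.37 against -0.06. These counts are no support for a direction, since the filter kept some genes through the group in which they were higher. *Il6ra* had 27.2 ± 0.208 CPM (SD, n = 2) in KD and 66.0 ± 5.90 (SD, n = 3) in NC (-1.27 ± 0.11 SE, edgeR, adjusted p = 1.19e-07). *Osm*, a ligand of the same family, was at 1.01 ± 0.385 against 6.90 ± 2.11 CPM and passed the filter through its NC libraries alone, so no call is given for it. *Sos1*, an activator of RAS, was higher, with 124 ± 12.5 against 40.8 ± 5.67 CPM (1.59 ± 0.11, edgeR, adjusted p = 1.46e-08), as was *Myc*, a STAT3 target, with 7.24 ± 0.097 against 1.73 ± 0.338 CPM (2.05 ± 0.28, edgeR, adjusted p = 1.33e-05).

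Side by side, the L2C levels of the 2 experiments differed for some of these genes. They come from separate experiments, and the sources do not settle whether the libraries were prepared alike. Reads were counted over whole gene spans in SLIM-seq and over exons in the knockdown, so the levels are given as values. *Jak2* had 32.6 ± 0.66 CPM (SD, n = 3) in L2C inputs and 641 ± 31.6 CPM in NC, 19.6-fold more. *Socs3* had 500.2 ± 38.1 CPM in the inputs and 12.0 ± 0.74 CPM in NC, 41.5-fold less. Over 14184 genes with a mean of at least 10 counts in both groups, the log2 ratio of NC to input had a median of 0.08 and the middle 95% lay between -3.97 and 3.70. *Jak2*, at 4.29, and *Socs3*, at -5.38, both lay outside that range. The L2C input of *Jak2* is the denominator of the value for which the gene was chosen, so its place here is a description and supports nothing. *Jak1* (-0.05), *Il6st* (-0.44), *Socs2* (0.30), *Stat3* (-2.03) and *Tyk2* (-2.04) lay inside it. The L2C order of *Jak2* and *Socs3* was thus reversed between the experiments.

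**Figure D5:**
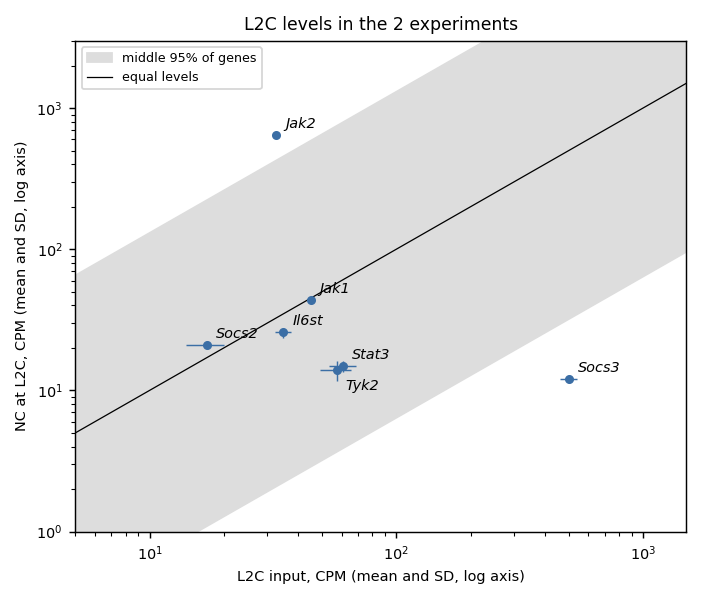
Mean CPM and SD of the 7 genes with enough counts in L2C inputs (x, log axis, n = 3) and in NC embryos at L2C (y, log axis, n = 3); the line marks equal levels and the grey band holds the middle 95% of 14184 genes. *Jak2* lies above the band and *Socs3* below it.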

How the data were processed

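RNA was captured without fragmentation, so IP/input refers to whole transcripts. For SLIM-seq, the authors quantified reads with kallisto against 1 target per gene that spans the whole gene on GRCm38, introns included, and deposited estimated counts, which need not be whole, and TPM values, which divide by the length of that span. For the knockdown, the deposited raw counts are read pairs per gene, summed over exons by featureCounts after trimming (Trimmomatic) and alignment (HISAT2). The strand setting is not given in the sources used here. Tools are named as in the submitters' processing notes. One KD file ends part-way along the annotation, and 25739 genes are in the merged table. The labels name a stranded SMART-Seq kit and the study's methods a Smart-seq2-based one.

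Members and gene lists were chosen with earlier results of these data known. Estimated counts were rounded to whole numbers. edgeR 4.0.16 in R 4.3.3 (TMM, filterByExpr, quasi-likelihood test) was fitted to all genes, with all 18 SLIM-seq libraries together for IP/input, the 9 inputs together for levels between stages (with a TMM of their own, so that log2 changes of inputs are not exactly those of the printed CPM, which use all 18), and the 5 or 6 knockdown libraries. p-values were adjusted by Benjamini-Hochberg over all genes tested and called under 0.05. The sign ± after a log2 change marks its standard error. Alternatives were DESeq2 1.42.0, library size alone, no filter, a replicate block, each library left out, fits of single stages and the study's call rules. Named are the 9 genes, *Ythdc1*, for each comparison at most 6 pathway genes per direction with the smallest p among calls with a log2 change over 1 in size, and the coding genes most alike in pattern, 3 for *Jak2* and 1 for each other gene (that of *Stat3* is not reported here). Replicates were compared pairwise and differed by more than sampling noise (chi-square per degree of freedom of at least 2.67). Fits were tested on simulated data. With counts of 3 or fewer per library, the ratio of summed counts is given with a Clopper-Pearson interval. Sequences came from RefSeq promoters of GRCm38.p6 and from GENCODE M21 transcripts, and Python 3.11.15 was used.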

Additional observations from a re-analysis of the deposited data

Results flagged for a closer look

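No group holds 4 libraries, so single libraries were not screened for outliers. The differences in IP/input between stages that passed the test (edgeR, difference of log2 IP/input) are repeated here as values. Between MII and L1C it differed for *Stat5b* alone, by 2.78, a fitted size that depends on the prior count because the MII IP libraries hold 1 to 3 counts. Between L1C and L2C it differed by 1.33 for *Tyk2*, 0.77 for *Il6st*, 0.46 for *Jak1* and -2.29 for *Socs3*. Between MII and L2C it differed by 2.11 for *Stat5b*, 1.29 for *Tyk2*, 0.81 for *Stat3*, 0.74 for *Il6st* and -1.48 for *Socs3*. *Socs3* was the single one of these genes whose IP/input was lower at L2C, and the cause was not tested.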

How the results depend on the processing

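Under the rules of the study as applied here, which differ in direction and in the p used, the number of the 9 genes called was 1 at MII, 1 at L1C and 0 of the 8 tested at L2C in place of 8, 6 and 6 by adjusted p, and it was 3 in place of 5 in the knockdown and 0 in place of 1 in the merged table. For the change of IP/input from MII to L1C, 1 gene was called, and 2 were with DESeq2, without the filter and with only the libraries of the stages compared. With each library left out in turn, the calls ranged from 7 to 8 at MII, 5 to 6 at L1C and 6 to 6 at L2C, from 1 to 2, 3 to 4 and 5 to 6 for the changes of IP/input from MII to L1C, L1C to L2C and MII to L2C, from 5 to 6, 8 to 8 and 6 to 6 for the input changes, and from 4 to 6 (*Lifr* included) and 1 to 1 in the knockdown. No called value changed direction under any of these alternatives. Signs changed only for values that were not called. With library size alone *Socs2* IP/input was 0.0997 at L1C and 0.0175 at L2C, and the change from MII to L1C was 0.0269 for *Tyk2* and 0.0421 for *Il6st*. *Tyk2* from MII to L2C was -0.0501 without the filter and -0.0416 with only those stages, and *Lifr* was -0.0645, -0.0630 and, with the replicate block, -0.0041. With libraries left out, the change of IP/input from MII to L1C ranged from -0.18 to 0.15 for *Tyk2* and from -0.127 to 0.0444 for *Il6st*, that of *Socs2* from L1C to L2C from -0.179 to 0.0759, and the input changes from -0.14 to 0.10 for *Socs3* (MII to L1C), from -0.11 to 0.10 for *Tyk2* and from -0.102 to 0.0369 for *Lifr* (MII to L2C).

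Inputs came from the same RNA batches as the IPs, but no source ties a batch to a replicate number, and the numbers did not pair the libraries: deviations of same-numbered IP and input libraries correlated between -0.15 and 0.09, inputs of different stages between -0.07 and 0.13, and KD and NC at 0.09 and -0.11. With the replicate block, calls of *Socs2* at MII and of *Jak1* from L1C to L2C were lost and *Jak2* in the knockdown was called (-0.20, adjusted p = 0.0049). Over all genes, the block moved the changes of IP/input from 1609 to 1067 calls (MII to L1C) and from 2079 to 1168 (L1C to L2C), and the latter were 1367 without L1C IP replicate 3 and 1269 without L2C IP replicate 3. With only the libraries of the stages compared, the split was 444 higher and 1083 lower, 566 and 1687, and 1778 and 2990 in place of 686 and 923, 1098 and 981, and 2431 and 2021 for the 3 changes. From L1C to L2C it was 1317 and 1777 with DESeq2, 1025 and 1447 without the filter and 983 and 1209 with library size alone, from MII to L2C 2426 and 2714 with DESeq2 and 2175 and 2249 without the filter, and from MII to L1C 968 and 848 with library size alone. With DESeq2 the IP/input split was 4500 and 4411 at MII and 4011 and 3976 at L1C. On the scale of the whole gene span the order of the input levels changed. Counts were few for *Stat5b* and, in the knockdown, for *Lifr*.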
